A study of Homo sapiens with 4 samples.

Results

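The genes described here are 9 members of the cell-to-matrix adhesion system: the integrin subunits ITGA2, ITGA3, ITGA6, ITGB1 and ITGB4, the laminin chains LAMA3, LAMA5 and LAMB3, and the netrin NTN4. They were taken by name, with earlier results of these data known, as 9 of the 20033 protein-coding genes placed on the chromosomes. ITGA2 and NTN4 were chosen by the strength of their peaks in the NIT2 knockdown list, so those peaks are a description and support nothing. Every peak that touched a gene's span, extended by 10 kb on both sides, was read from 2 peak lists. These came from MKN45, an established human gastric cancer cell line, and map H3K14ac, acetylation of lysine 14 on histone H3, by chromatin immunoprecipitation and sequencing. The groups were MKN45 cells with a hairpin named for NIT2 (shNIT2) and MKN45 cells with the control hairpin (shNT). Each had 1 H3K14ac library and 1 input library without antibody, and the input libraries were not analysed here. The sources used here do not say whether each line was a clone or a pool, and no expression value checks the knockdown. With 1 library a group no difference has a replicate check and no test was made.

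Integrins are cell surface receptors made of an alpha and a beta subunit, and they tie the matrix outside the cell to the cytoskeleton inside. Laminins are secreted trimers of an alpha, a beta and a gamma chain and build the basement membrane on which epithelia rest. Netrins share domains with laminins, and NTN4 binds laminin networks. In simple and stratified epithelia, ITGA6 with ITGB4 holds the cell to a laminin that contains LAMA3 and LAMB3 at hemidesmosomes. NIT2 is an omega-amidase of glutamine metabolism. H3K14ac is found at promoters and enhancers of active genes.

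The libraries differed in depth. The fragment pileup at a summit and its background can be solved from the fold and −log10 p of each peak, and the lowest background, a floor that rises with depth, was 2.48 fragments in shNIT2 and 0.278 in shNT, a ratio of 8.93. The median peak stood on 22 fragments in shNIT2 and on 6 in shNT. The shNIT2 list held 28187 peaks and the shNT list 39876. Epithelial marker genes (EPCAM, CDH1, KRT8, KRT18, KRT19 and CLDN4) had a peak within 1 kb of a gene end in 6 of 6 cases in shNIT2 and in 4 of 6 in shNT. Of the other marker genes, 1 of 5 stromal (VIM), 1 of 4 leukocyte (CD3E) and 0 of 3 endothelial genes had one in shNIT2, and none had one in shNT. Over all protein-coding genes these shares were 36.8% and 6.41%. The spans of KRT8 and KRT18 overlap, so a peak can count for both of these markers. In the span plus 10 kb the markers separated less, with epithelial genes at 6 of 6 in both lists. Stromal genes had a peak there in 2 of 5 cases in shNIT2 and 1 of 5 in shNT. Leukocyte genes had one in 3 of 4 and 2 of 4, and endothelial genes in 1 of 3 in each list. All protein-coding genes stood at 54.9% and 38.6% there. In what follows, fragments are the solved pileup at a summit, and a fold is the authors' enrichment of that pileup over its background, which ranks peaks only within a list.

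In shNIT2 cells every one of the 9 genes had H3K14ac at its start or at an end of its span, and the peaks took 3 forms there. At ITGA2 and NTN4 a single wide peak covered the start. At ITGB1, ITGB4, LAMA3 and LAMB3 the outermost start in the table or the lower end of the span lay in a gap between 2 peaks. Of the 3 starts of LAMB3, the one at 209652329 was covered by the inner of these peaks. At ITGA3, ITGA6 and LAMA5 a peak lay on 1 side, inside the gene. Among the annotated starts of all protein-coding genes that had an shNIT2 peak within 1 kb, 20.8% were covered by a peak and 19.3% lay between 2 peaks, so both forms are common in this list. The gap was 346 bp wide at ITGB1, 289 bp at ITGB4, 449 bp at the start inside LAMA3 and 275 bp at the outermost start of LAMB3. In shNT cells ITGB1 was the only member with its start between 2 peaks, with a gap of 680 bp, and no member's start was covered. Both forms are rare in the shNT list, where 0.243% of all annotated starts were covered and 0.257% lay between 2 peaks, so nothing about the members can be read from this. ITGA3 and ITGB4 have no entry in the table of starts, so distances for them are from the lower end of the span.

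The 250 bases before the start are shown for genes of the covered form (ITGA2 and NTN4) and of the gap form (ITGB1, LAMA3 and LAMB3), since the peaks divide there. They are RefSeq sequence of GRCh38.p14, 5′ to 3′ on the gene's strand. ITGA2 is chr5:52989102-52989351 (+), NTN4 chr12:95791156-95791405 (−), ITGB1 chr10:32958231-32958480 (−), LAMA3 chr18:23872770-23873019 (+) and LAMB3 chr1:209652426-209652675 (−). Capitals mark matches, on either strand, to the letters GGGCGG (SP/KLF), TGANTCA (AP-1), CCGGAA (ETS), CCAAT (NF-Y), CACGTG (E-box), GGAATG (TEAD) or TATAAA (known as the TATA box).
ITGA2: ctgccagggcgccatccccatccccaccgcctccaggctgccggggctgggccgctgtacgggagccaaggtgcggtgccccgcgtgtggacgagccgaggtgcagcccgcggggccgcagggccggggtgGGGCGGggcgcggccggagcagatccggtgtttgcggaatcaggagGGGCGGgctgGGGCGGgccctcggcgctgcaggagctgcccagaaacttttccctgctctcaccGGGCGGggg
NTN4: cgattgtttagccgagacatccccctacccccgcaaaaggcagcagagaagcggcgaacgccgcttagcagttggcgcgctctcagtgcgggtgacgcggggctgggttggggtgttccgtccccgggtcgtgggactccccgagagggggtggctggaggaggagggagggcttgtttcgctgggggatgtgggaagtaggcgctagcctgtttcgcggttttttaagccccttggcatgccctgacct
ITGB1: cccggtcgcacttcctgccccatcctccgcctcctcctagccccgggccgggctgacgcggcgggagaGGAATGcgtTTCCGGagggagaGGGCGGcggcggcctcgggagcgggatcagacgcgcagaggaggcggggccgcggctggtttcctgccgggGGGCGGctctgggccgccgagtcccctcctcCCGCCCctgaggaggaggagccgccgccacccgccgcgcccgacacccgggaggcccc
LAMA3: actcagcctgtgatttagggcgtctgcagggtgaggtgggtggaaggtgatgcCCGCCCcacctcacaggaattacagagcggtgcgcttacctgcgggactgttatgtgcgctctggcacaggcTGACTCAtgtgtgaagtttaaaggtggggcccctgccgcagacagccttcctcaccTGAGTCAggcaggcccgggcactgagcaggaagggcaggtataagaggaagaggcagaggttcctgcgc
LAMB3: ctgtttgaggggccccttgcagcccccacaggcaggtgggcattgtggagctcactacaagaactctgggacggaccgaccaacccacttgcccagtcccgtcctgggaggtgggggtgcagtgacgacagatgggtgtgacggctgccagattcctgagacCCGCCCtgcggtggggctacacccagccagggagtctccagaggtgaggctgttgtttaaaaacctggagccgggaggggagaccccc

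Of these windows, shNIT2 peaks covered all 250 bases at ITGA2 and NTN4, 55 at LAMB3 and 0 at ITGB1 and LAMA3, and shNT peaks covered 0 bases of each. The letters found differed within the covered pair. ITGA2 had 4 matches to GGGCGG and a GC content of 76.4%, while NTN4 had no match to any of the 7 letter strings and 64.4% GC. ITGB1, at 78.4% GC, had 3 matches to GGGCGG and 1 each to CCGGAA and GGAATG. LAMA3, at 60.4% GC, held 2 matches to TGANTCA and 1 to GGGCGG. At least 1 match to TGANTCA is held by 5.36% of the 22198 windows of protein-coding genes. LAMB3 held 1 match to GGGCGG, where 53.7% of all windows hold at least 1, and had 64% GC against a median of 62% over all windows. The shares of all windows were 17.9% for CCGGAA, 32.7% for CCAAT, 7.37% for CACGTG, 10.5% for GGAATG and 9.01% for TATAAA. A match is a description of letters only.

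**Figure D1:**
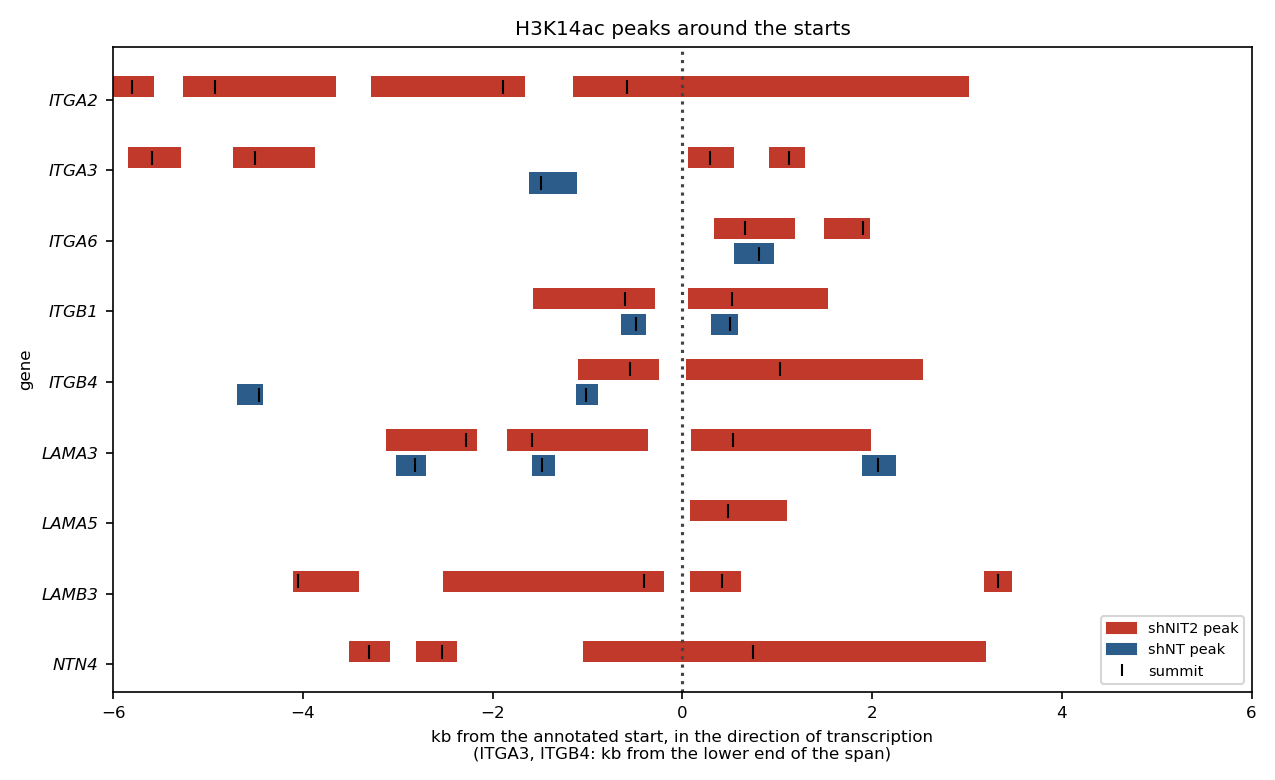
Extent of the H3K14ac peaks (bars) and their summits (ticks) within 6 kb of the outermost annotated start of each gene, or of the lower end of the span for ITGA3 and ITGB4, with shNIT2 above shNT. Wide shNIT2 bars cross the start at ITGA2 and NTN4, bars flank it at ITGB1, ITGB4, LAMA3 and LAMB3, and the shNT bars are fewer and mostly narrower.

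Across the windows, the 9 genes held 56 peaks in shNIT2 and 20 in shNT. All 9 had at least 1 peak in shNIT2, where 54.9% of all protein-coding genes did, and all 9 had at least 1 in shNT, where 38.6% did. Thus all 9 had peaks of both lists, against 27.4% of all genes, and 0 had a peak in shNIT2 alone, against 27.5%. Their spans are long, with a median of 58.2 kb against 24.1 kb over all genes, so the counts are also given per length. Per 100 kb of window the members had 5.67 peaks in shNIT2 and 2.02 in shNT, and all protein-coding genes had 1.66 in shNIT2 and 0.823 in shNT. Without ITGA2 and NTN4 the other 7 had 5.50 per 100 kb in shNIT2 and 2.26 in shNT. These 7 were also chosen with earlier results of these data known, so their density is a description too. Within 1 kb of a gene end, 9 of 9 had a peak in shNIT2 (36.8% of all genes) and 3 of 9 in shNT, namely ITGA6, ITGB1 and ITGB4 (6.41% of all genes). These 3 had one in both lists, as 5.12% of all genes did. The other 6 had one in shNIT2 alone (31.7% of all genes).

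**Figure D2:**
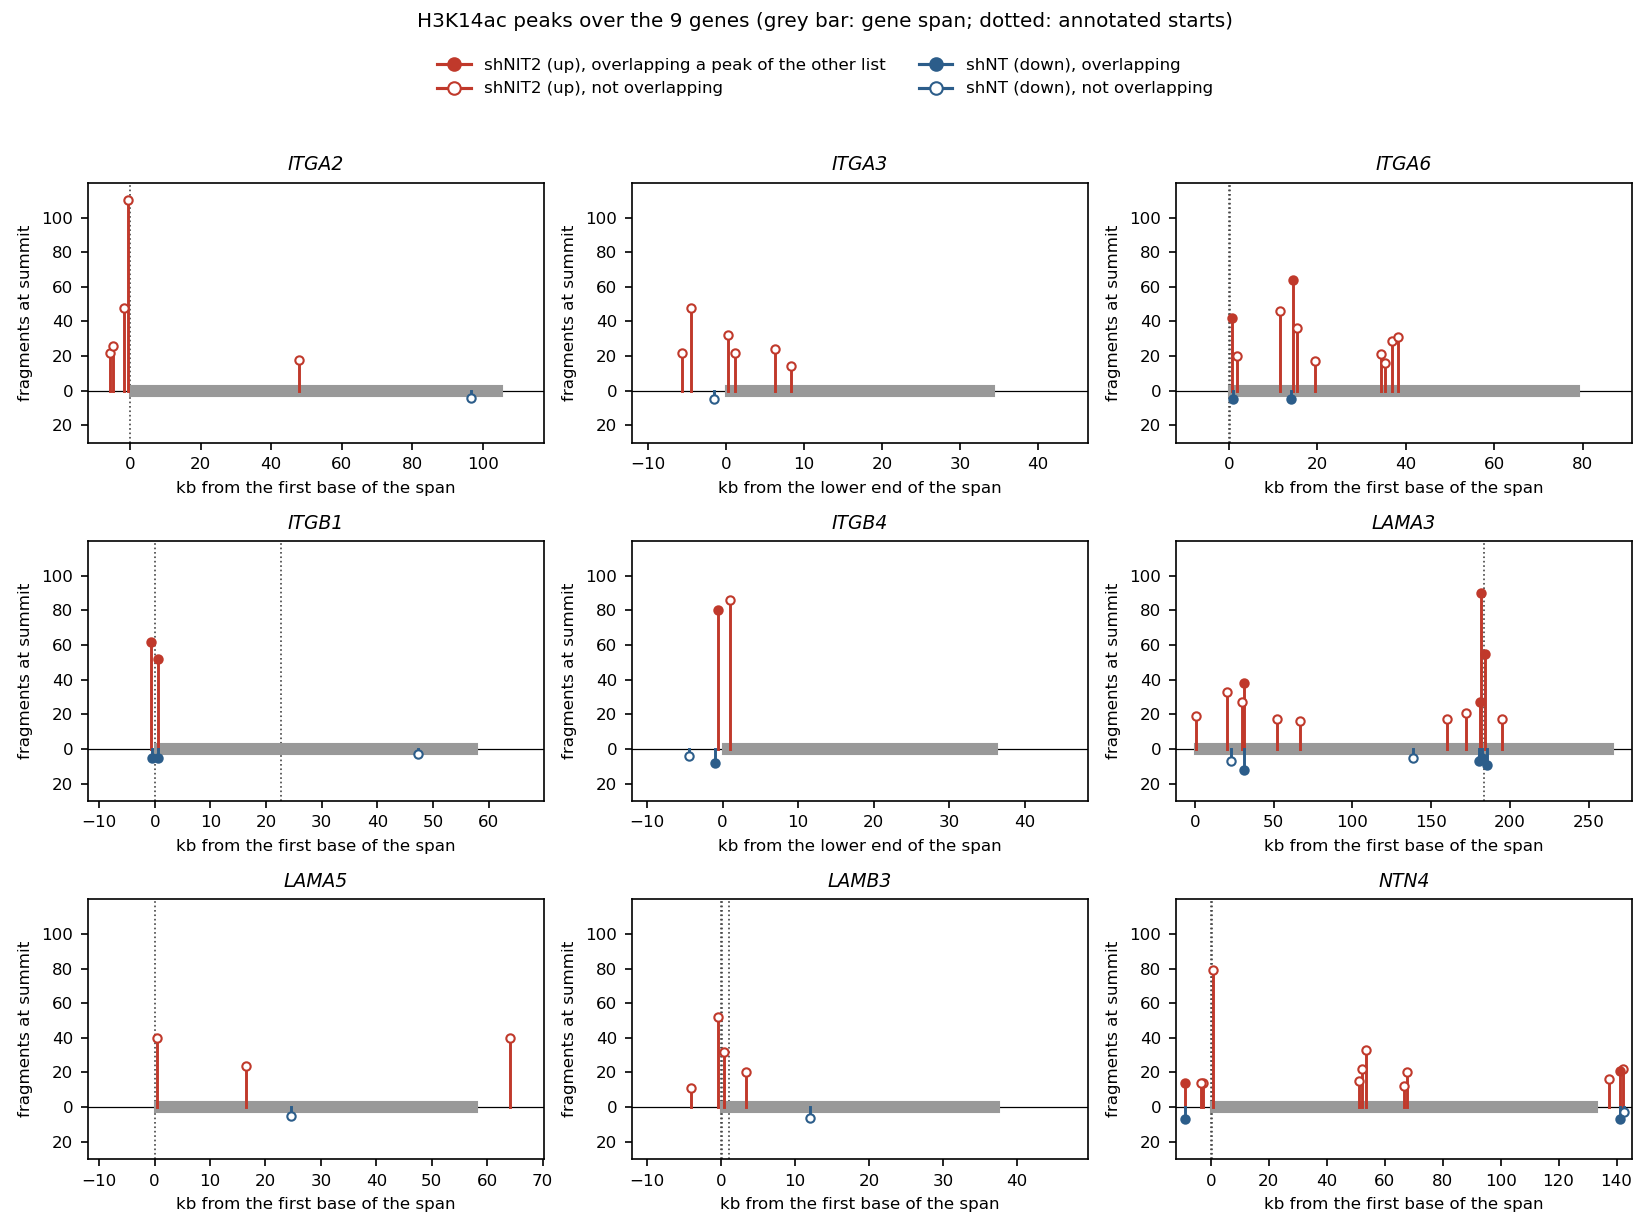
Fragments at each peak summit (vertical axis, shNIT2 upward, shNT downward, at the depth of each library) against the distance in kb from the first base of the gene span in the direction of transcription, or from its lower end for ITGA3 and ITGB4. Filled points overlap a peak of the other list; the tallest shNIT2 points are at the start of ITGA2 (110 fragments), the inner start of LAMA3 (90), the lower end of ITGB4 (86 and 80) and the start of NTN4 (79), and no shNT point exceeds 12.

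ITGA2 encodes the alpha subunit of a collagen and laminin receptor. In shNIT2 cells it had 5 peaks, and 4 of them formed a run before and over the start. The strongest lay on chromosome 5 from 52988198 to 52992368, was 4171 bp wide, reached 23.3-fold on 110 fragments (exact 95% Poisson interval 90.4 to 133), and had its summit 580 bp before the start. It ranked 182 of 28187 peaks by −log10 p and 148 by width. The other 3 of the run had summits 1.89, 4.93 and 5.81 kb before the start on 48, 26 and 22 fragments, within the span of the antisense lncRNA gene ITGA2-AS1, which the strongest peak also touched. The fifth lay 48.0 kb into the gene on 18 fragments. In shNT cells the window held 1 peak, on 4 fragments (1.09 to 10.2), 96.7 kb into the gene and near its far end. The shNT peak nearest to the start lay 76385 bp before it, outside the window. No ITGA2 peak of either list overlapped a peak of the other.

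ITGA3 encodes the alpha subunit of a laminin receptor that pairs with ITGB1. It had 6 shNIT2 peaks on 14 to 48 fragments and 1 shNT peak on 5. Its highest shNIT2 fold, 5.66, was the lowest maximum of the 9 genes. That peak, on 48 fragments, lay 4.51 kb below the span, over the lncRNA gene PICART1, where the background was 3.09 times the floor. At the lower end of the span a peak of 489 bp from 50056166 to 50056654 on chromosome 17 stood on 32 fragments at 5.15-fold, 294 bp inside. The shNT peak lay 1.49 kb below the span and overlapped none of the shNIT2 peaks.

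ITGA6, the alpha subunit of laminin receptors with ITGB1 or ITGB4, had 10 shNIT2 peaks, a number that 1.27% of protein-coding genes reach, and 2 shNT peaks. The shNIT2 peaks fell in 3 groups inside the gene. The first pair lay 0.654 and 1.9 kb from the first base on 42 and 20 fragments. The next 4 lay from 11.5 to 19.5 kb, with the strongest of the gene among them, on chromosome 2 from 172439488 to 172442079, at 11.3-fold on 64 fragments (49.3 to 81.7). The last 4 lay from 34.4 to 38.1 kb on 16 to 31 fragments. Both shNT peaks, each on 5 fragments, fell under shNIT2 peaks, 1 at the start and 1 in the second group. The strongest shNIT2 peak of ITGA6 thus had its summit 14.4 kb from the first base, while that of ITGA2 covered the start.

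ITGB1, the beta subunit shared by the most integrins, had only its start marked in shNIT2 cells. The peak inside the gene on chromosome 10 from 32956693 to 32958171 stood at 10.98-fold on 52 fragments (38.8 to 68.2), and the peak before it from 32958518 to 32959806 at 11.5-fold on 62 fragments (47.5 to 79.5). In shNT cells each of these held a peak on 5 fragments (1.62 to 11.7), with summits 17 and 119 bp from those of shNIT2. The third shNT peak lay 47.3 kb into the gene on 3 fragments. The second annotated start, at 32935558, had no peak within 1 kb in either list.

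ITGB4, the partner of ITGA6 in hemidesmosomes, likewise had 2 shNIT2 peaks. On chromosome 17 they ran from 75720358 to 75721207 below the span (12.02-fold on 80 fragments) and from 75721497 to 75723997 inside it (10.3-fold on 86 fragments). By fragments, though not by fold, the peak inside was below only that of ITGA2 among the 5 integrin subunits described. In shNT cells a peak on 8 fragments (3.45 to 15.8) overlapped the one below the span, its summit 466 bp away, and the wider peak inside had no shNT counterpart. The other shNT peak lay 4.47 kb below the span on 4 fragments. No peak of either list lay over GALK1, the galactokinase gene that overlaps the far end of ITGB4.

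LAMA3, the alpha chain of the hemidesmosomal laminin, had the longest span (266 kb) and 12 shNIT2 and 6 shNT peaks. Its annotated start in the table used lies inside the span, at 23873020 on chromosome 18, and the strongest shNIT2 peaks flanked it. The one before it ran from 23871170 to 23872659 at 9.79-fold on 90 fragments (72.4 to 111) and the one after it from 23873109 to 23875006 at 7.59-fold on 55 (41.4 to 71.6). Backgrounds there were 3.34 and 2.57 times the floor, and the list's median is 1.72. The first base of the span had a smaller peak, on 19 fragments, with its summit 492 bp inside. In shNT cells 4 of the 6 peaks overlapped shNIT2 peaks, and 3 of these were near the inner start, on 7, 5 and 9 fragments. The strongest shNT peak of the 9 genes also lay in LAMA3, from 23720338 to 23720664, 31.0 kb into the span, at 9.02-fold on 12 fragments (6.20 to 21.0). It lay inside an shNIT2 peak on 38 fragments, with summits 20 bp apart.

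LAMA5, the alpha chain of the main laminins of mature epithelial basement membranes, had 3 shNIT2 peaks and 1 shNT peak, none overlapping. Its start on chromosome 20 had an shNIT2 peak from 62366215 to 62367237 at 9.61-fold on 40 fragments. The peak with the highest fold in its window, from 62303027 to 62303896 at 10.6-fold on 40 fragments, lay past the far end and within 1 kb of ADRM1, a proteasome subunit gene. The shNT peak, on 5 fragments, lay 24.6 kb into LAMA5.

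LAMB3, the beta chain that joins LAMA3, had 4 shNIT2 peaks around its starts and 1 shNT peak elsewhere. On chromosome 1 the strongest ran from 209652621 to 209654947 before the outermost start, at 10.1-fold on 52 fragments (38.8 to 68.2), and its neighbour from 209651805 to 209652345 stood at 6.91-fold on 32. The other 2 stood on 20 and 11 fragments. The shNT peak lay 12.01 kb into the gene on 6 fragments and overlapped none of them.

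NTN4 had 12 shNIT2 and 3 shNT peaks. The strongest shNIT2 peak, on chromosome 12 from 95787951 to 95792205, was 4255 bp wide, the widest of the 9 genes and rank 138 of the list. It covered both annotated starts and stood at 22.96-fold on 79 fragments (62.5 to 98.5), with a background at the floor. Of the others, 5 formed 2 groups inside the gene, 51.3 to 53.5 kb and 66.7 to 67.7 kb from the first base, on 12 to 33 fragments. A further 3 lay before the start and 3 past the far end, on 14 to 22 fragments. In shNT cells 2 of the 3 peaks overlapped shNIT2 peaks, each on 7 fragments (2.81 to 14.4), but at the edges of the window. One lay 8.92 kb before the start, over the noncoding gene SNRPF-DT, and the other past the far end, over the pseudogene PGAM1P5. The wide peak at the start had no shNT peak, the nearest shNT peak being 8792 bp from the outermost start. ITGA2 and NTN4 thus both had a wide covering peak with no shNT counterpart, and both had further shNIT2 peaks before the start and inside the gene.

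The overlap of the lists was uneven over the 9 genes. Of the 56 shNIT2 peaks 11 overlapped an shNT peak, 19.6%, against 11.5% of all shNIT2 peaks in windows of protein-coding genes. Of the 20 shNT peaks 11 overlapped an shNIT2 peak, 55%, against 22.5%. They came from 5 genes, with 2 at ITGA6, 2 at ITGB1, 1 at ITGB4, 4 at LAMA3 and 2 at NTN4, and 6 of the shNIT2 peaks in them were within 1 kb of a start or span end. ITGA2, ITGA3, LAMA5 and LAMB3 had none.

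Dividing an shNIT2 pileup by 8.93 gives the fragments it would have at shNT depth. The smallest pileup called in shNT is 3 fragments, and 30 of the 56 shNIT2 peaks fall below 3 on this scale, so a missing shNT peak there was not detectable as a difference at this depth. That minimum is also the one at the background floor, and a higher background can need more fragments. Some of the other peaks may therefore have been undetectable too. The start peak of ITGA2 comes to 12.3 fragments (10.1 to 14.8) and that of NTN4 to 8.84 (7.002 to 11.02), and neither had an shNT peak. The inner ITGB4 peak, at 9.63, had none either. Of the 5 member peaks at 8 or more, 2 overlapped an shNT peak, the ITGB4 peak below the span and the LAMA3 peak before the inner start. Among all shNIT2 peaks at 8 or more, 54.4% did, and among those from 8 to 13, 46.9% did. A strong shNIT2 peak with no shNT peak is therefore common in these lists. Between 5 and 8 fragments 4 of 8 member peaks overlapped (32.1% of all), between 3 and 5 fragments 3 of 13 (15.9%), and under 3 fragments 2 of 30 (5.13%).

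Where the lists overlapped, the pileups could be set side by side at shNT depth. At ITGB1 the 2 start peaks came to 5.82 and 6.94 fragments from shNIT2, against 5 and 5 in shNT. ITGB4 came to 8.96 from shNIT2, against 8 in shNT, and the start of ITGA6 to 4.70 against 5. The LAMA3 peak before the inner start came to 10.1 from shNIT2, against 5 in shNT. The one after it came to 6.16 against 9, but with summits 1533 bp apart, so these values are from different places. Summits of the 11 pairs lay 17 to 1533 bp apart, with a median of 150 bp. The counting intervals of both libraries overlapped in 9 of the 11 pairs. The intervals stood apart in 2 pairs, both with more in shNT. The LAMA3 peak 31.0 kb into the span had 4.25 fragments (3.01 to 5.84) from shNIT2 against 12 (6.20 to 21.0) in shNT. The peak 8.98 kb before NTN4, over SNRPF-DT, had 1.57 (0.857 to 2.63) against 7 (2.81 to 14.4). A pair exists only where shNT had a called peak, which favours high shNT values: over all 3287 overlapped shNIT2 peaks the median of shNT over shNIT2 at shNT depth was 1.62 (quartiles 1.10 and 2.35).

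**Figure D3:**
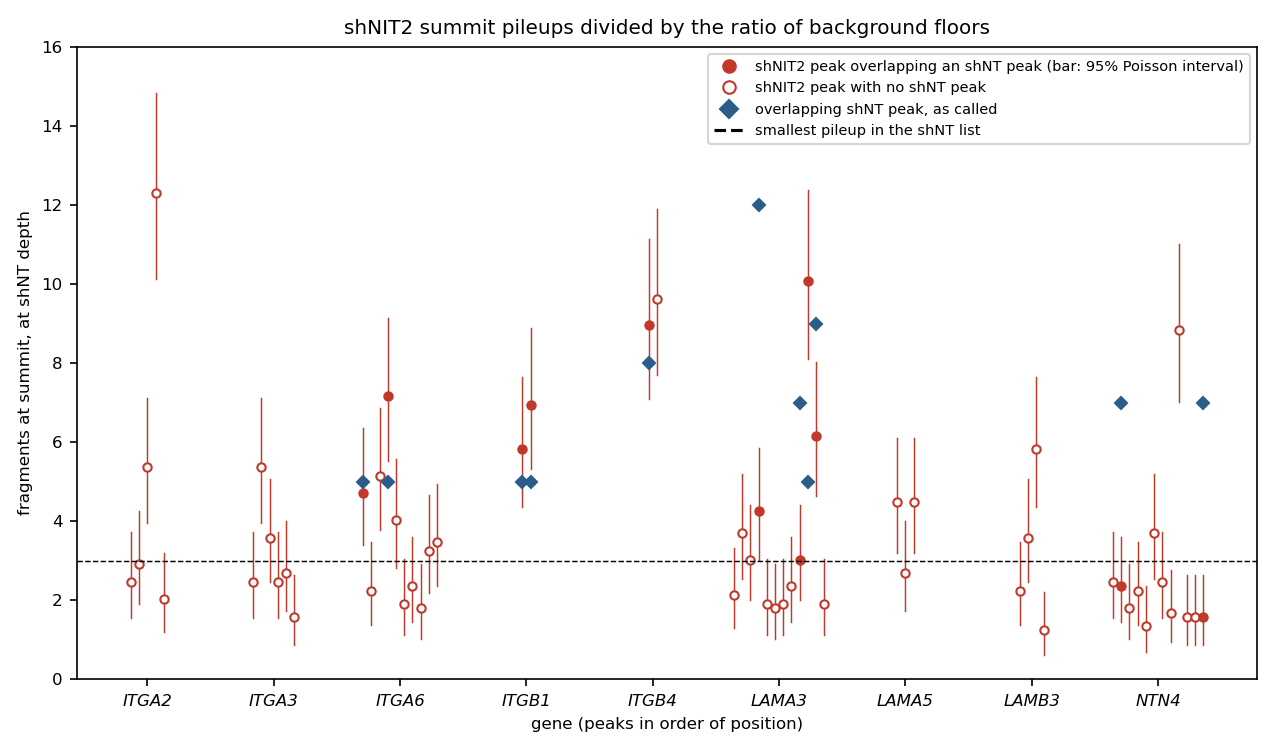
Summit pileups of the 56 shNIT2 peaks divided by 8.93 (circles, with 95% Poisson intervals for counting error), in order of position within each gene, and the pileup of the overlapping shNT peak (diamonds). The open circles of ITGA2 at 12.3, ITGB4 at 9.63 and NTN4 at 8.84 have no shNT peak, and the dashed line is the smallest pileup in the shNT list, 3 fragments.

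Near the limit of the window, the 6 shNIT2 peaks between 5 and 10 kb from a span had folds from 4.18 to 10.6, and the 10 between 10 and 20 kb had folds from 3.75 to 12.9. In shNT there were 3 inside, from 3.13 to 6.26, and 4 outside, from 3.06 to 6.94. The highest outside value, 12.9-fold, belonged to a peak 12.1 kb before NTN4.

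The wider families were marked unevenly. Of 26 integrin subunit genes, 18 had a peak in their window in shNIT2 and 17 in shNT, with 5 in shNIT2 alone, 13 in both and 4 in shNT alone. Over all protein-coding genes the shares were 54.9% in shNIT2, 38.6% in shNT, 27.5% in shNIT2 alone, 27.4% in both and 11.2% in shNT alone. Within 1 kb of a gene end the counts were 12 of 26 in shNIT2 and 4 in shNT. ITGA2, ITGB4 and ITGB1 had the highest folds in shNIT2, all in the 9 genes described. ITGA2 was taken for its strength and the rest with earlier results known, so their place among the 9 follows from the choice. The 4 in shNT alone were ITGA4, ITGA7, ITGA9 and ITGAM, on 3 to 8 fragments at most, and none of these peaks was at a gene end. Integrin subunits that leukocytes use stood on both sides, with ITGAE, ITGAX and ITGAD in shNIT2 alone, and ITGA4 and ITGAM in shNT alone. ITGB2 and ITGAL had peaks in both lists and ITGB7 in neither. ITGAX and ITGAD had the same values, 3.45-fold on 13 fragments, in overlapping windows, so 1 peak is counted for both genes. The leukocyte subunits were named after their values were seen. Of the 12 laminin chains, 11 had a peak in both lists and LAMC3 in shNT alone, while 7 had one at a gene end in shNIT2 and 2 in shNT. The highest laminin fold was that of LAMC1, a gamma chain found in most laminins, at 20.5 on 98 fragments, followed by LAMA5 (10.6, the peak near ADRM1) and LAMA2 (10.3).

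Netrins and their receptors had few peaks at gene ends, 2 of 12 in shNIT2 and 0 in shNT. NTN4, taken for its strength, stood far above the next, NTN3 (6.32-fold on 21 fragments) and the receptor gene UNC5B (5.75-fold on 20). DCC, UNC5C, UNC5D and NTNG1 had peaks in shNT alone (4 of 12, against 11.2% of all genes), on at most 8 fragments, and none at a gene end. Their spans are long, from 345 kb (NTNG1) to 1196 kb (DCC), against a median of 24.1 kb over all genes. Another 4 had peaks in shNIT2 alone (27.5% of all genes), namely NTN3, UNC5B and the receptor genes UNC5A and NEO1. Of 6 genes for hemidesmosome and laminin-binding partners, 3 had a peak at a gene end in shNIT2 and 0 in shNT. The highest folds belonged to PLEC, the plectin that anchors ITGB4 to keratin (20.9 on 193 fragments), CD151, a tetraspanin that binds laminin receptors (8.62), and DST (7.18). Integrin adaptors were marked at gene ends in 12 of 16 cases in shNIT2 and in 1 of 16, BCAR1, in shNT. BCAR1 (16.9-fold), ZYX, the zyxin gene (16.3-fold), and PXN, the paxillin gene (13.5-fold), led them. Basement membrane genes had 5 of 12 marked at gene ends in shNIT2 and 1 in shNT, led by AGRN (10.7-fold), COL4A2 (9.56-fold) and COL18A1 (8.12-fold). COL4A4, COL4A5, COL4A6 and NID1 had peaks in shNT alone (4 of 12, against 11.2% of all genes), on at most 9 fragments. They too have long spans, from 89.3 kb (NID1) to 284 kb (COL4A6). Over all genes 36.8% had a peak at a gene end in shNIT2 and 6.41% in shNT. No family was tested against these shares or those for the windows, and the shares for the windows take no account of span length. Neighbouring genes can share a peak, as LAMB1 and LAMB4 did, and ITGAX and ITGAD.

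**Figure D4:**
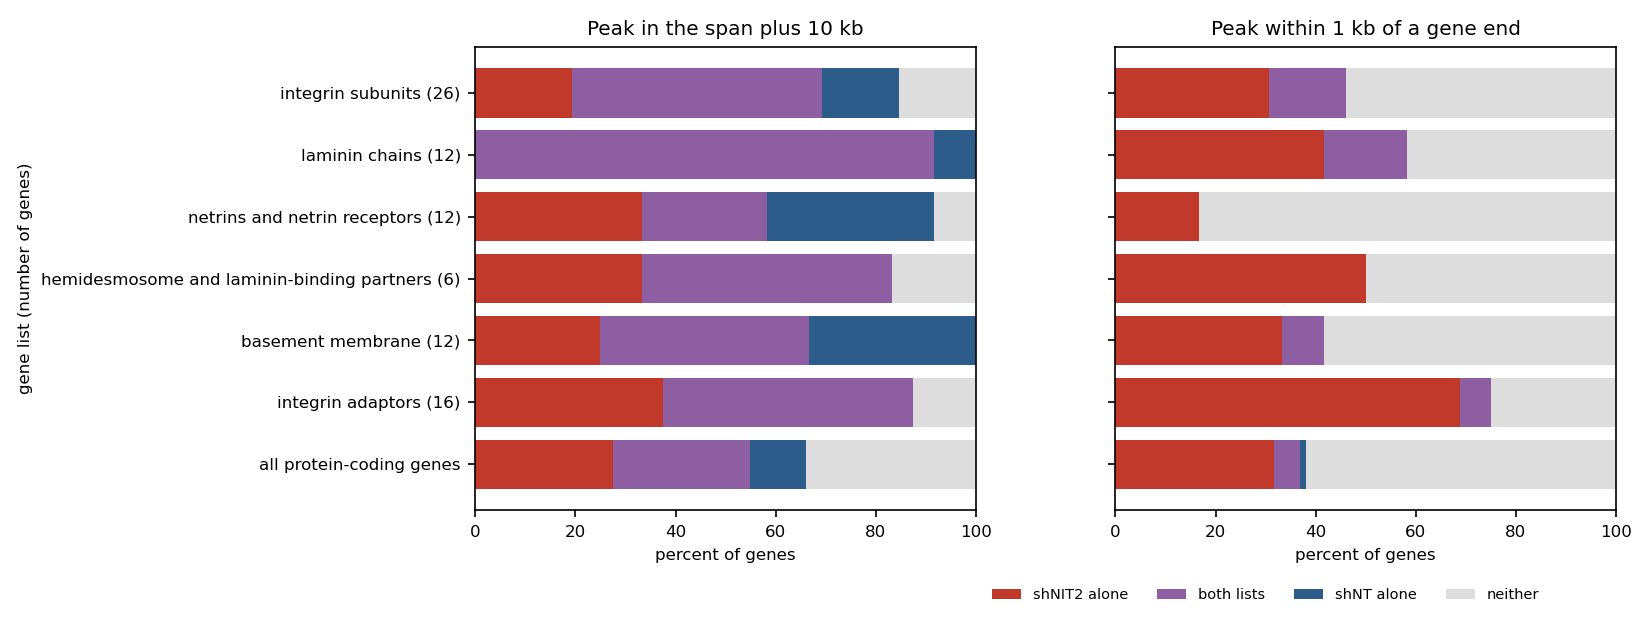
Percent of the genes of each family with a peak in shNIT2 alone, both lists, shNT alone or neither, in the span plus 10 kb (left) and within 1 kb of a gene end (right), with all protein-coding genes in the lowest row. At gene ends the integrin adaptors had 12 of 16 genes marked in shNIT2 and the netrins and receptors 2 of 12. No gene of these families was marked there in shNT alone. Over all genes 6.41% had an shNT peak there and 5.12% had peaks of both lists. Marks in shNT alone are thus rare at gene ends, and nothing about the families can be read from their absence.

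The genes most like ITGA2 and NTN4 were found from 4 values, the number of peaks and the highest fold in the window in each of the 2 lists, by the sum of absolute differences on a log2 scale after adding 1. For ITGA2 they were SH3GL1 (sum 0.40, 31.1-fold in shNIT2 and 3.91-fold in shNT), MYZAP (0.42, 19.0-fold and 3.47-fold) and SLC67A1 (0.54, 17.4-fold and 3.47-fold), each with 5 shNIT2 peaks and 1 shNT peak like ITGA2 itself. For NTN4 they were HDAC4 (0.65, with 17 shNIT2 and 3 shNT peaks), ANXA2 (0.76, with 12 and 4) and MYH9 (0.77, with 11 and 2). By highest fold in the window in shNIT2, ITGA2 ranked 102 and NTN4 105 of 20033 genes, which is what they were taken for. The other 7 ranked from 926 (ITGB4) to 5071 (ITGA3).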

How the data were processed

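H3K14ac libraries of MKN45 cells, single-end reads from fixed, sonicated chromatin per the labels' protocols, were grouped by the hairpin and antibody in their titles. The submitters' processing notes list MACS2 2.1.1, Bowtie2 2.2.6, ChIPseeker, FastQC, Trimmomatic 0.35 and cutadapt 1.9.1, with hg38 as build. The use of the inputs as control and the handling of duplicates are not given in the sources used here. The peaks were called by the authors, with 1 list for each H3K14ac library. The deposited lists give a score, a fold (ratio) over background with a pseudocount of 1, the −log10 p and −log10 q, and the summit. The smallest deposited −log10 q, 1.30, is a q-value of 0.05. Total reads are unknown.

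Coordinates are 1-based. Gene spans and starts came from RefSeq tables of GRCh38.p14 (hg38), and 7 of the 9 members matched the table of starts. The members and gene lists were chosen with earlier results of these data known. Every member is named, with the 3 highest folds of each family, its genes marked in shNT alone, and the 3 genes most like ITGA2 and NTN4. Pileup k and background were solved from fold and −log10 p with the Poisson tail above k, to within 0.01% of −log10 p. A single whole k was found for 99.99% of shNIT2 and 99.6% of shNT peaks and for every member peak, and the solution was tested on simulated data. Intervals are exact Poisson and cover counting error only. Shared peaks overlap by at least 1 bp. Python 3.11.15, numpy, scipy and pandas were used. Alternatives varied the window, the peak threshold, the overlap and the depth ratio.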

Additional observations from a re-analysis of the deposited data

How the results depend on the processing

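In shNIT2 all 9 genes kept at least 1 peak under every alternative tried. The shNT counts depended on the choice. Counts of genes with an shNT peak, also those with peaks of both lists, were 3 within 1 kb of a gene end, 2 at −log10 q of at least 5, 1 at 10 and 4 at a fold of at least 5. Genes with a peak in shNIT2 alone numbered 0 as reported, and 3 in the gene span alone, 6 within 1 kb of a gene end, 7 at −log10 q of at least 5, 8 at 10, 5 at a fold of at least 5 and 2 with equal numbers of strongest peaks. The 56 shNIT2 peaks became 13 within 1 kb of a gene end, 97 in the span plus 50 kb, 24 at −log10 q of at least 10 and 27 at a fold of at least 5. The 20 shNT peaks became 13 in the gene span, 4 within 1 kb of a gene end, 34 in the span plus 50 kb, 4 at −log10 q of at least 5, 1 at 10 and 8 at a fold of at least 5. Overlapping peaks, 11 in each list, became 2 with 50% reciprocal overlap and 3 at −log10 q of at least 5. The cause was not tested. With the median background ratio of overlapping peaks, 10.9, chosen after seeing the data, the ITGA2 start peak came to 10.05 fragments at shNT depth and that of NTN4 to 7.22. The NTN4 peak is then under 8 fragments, and the counts by class of fragments at shNT depth were not repeated with this ratio. The remaining alternatives, 21 of 50, stayed within 1.5 times or within the interval. No paired analysis was possible because each group had 1 library and the labels carry no replicate numbers.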
